A study of Saccharomyces cerevisiae with 4 samples.

Results

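The 57 genes described here encode parts of the budding yeast machinery that attaches, aligns and separates chromosomes and then takes the cell out of mitosis. They were chosen by name, from the kinetochore, the spindle motors and microtubule proteins, the spindle checkpoint, the anaphase promoting complex and the mitotic exit pathway. All 57 were found by their gene symbols, among 5343 named genes on the Affymetrix Yeast Genome 2.0 array. The study asked how gene expression under respiratory conditions depends on RSC, a chromatin remodeling complex whose ATPase subunit is Nps1 (Sth1). WT was the diploid strain BY4743, homozygous for his3Δ1, leu2Δ0 and ura3Δ0, heterozygous for met15Δ0 and lys2Δ0, and MATa/α. The mutant was the diploid BYI-3, listed as MATa/α and homozygous for nps1-13, a temperature-sensitive allele whose product is altered in the bromodomain near its C-terminus, and for his3Δ1, leu2Δ0, ura3Δ0 and met15Δ0, with no lys2 allele listed. Cells of both strains were pre-grown with glucose (YPD) at 28°C and placed for 4 h in YPEG, a medium with ethanol and glycerol as carbon sources. Biotin-labelled cRNA made from total RNA was hybridized to 4 arrays, 2 per strain. Whether the 2 arrays of each strain stem from separate cultures is not given in the sources used here, so p-values measure only the spread between these arrays, which may be technical.

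Kinetochores are protein assemblies that hold each chromosome on the ends of spindle microtubules. The spindle checkpoint keeps the anaphase promoting complex, a ubiquitin ligase, in check until every kinetochore is attached. Its activation by Cdc20 leads to the destruction of securin (Pds1), and separase (Esp1) then opens the cohesin rings that join sister chromatids. The mitotic exit network releases the phosphatase Cdc14 from the nucleolus and lets the cell return to G1. Transcripts of many of these genes are known to rise and fall in the cell cycle, and in RNA from a whole culture fewer cells in mitosis and less transcript per cell cannot be told apart.

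The deposited signals were lower on the nps1-13 arrays, with medians of 3051 and 2770 in WT and of 2158 and 2024 in nps1-13. Each array was therefore scaled to a common median of 2465, which adds 0.48 to every log2 fold change, and signals below are scaled signals unless named as deposited. The scaled log2 fold change of the median gene was 0.07, against -0.41 as deposited, -0.07 with the arrays scaled to a common trimmed mean and -0.01 after quantile normalization. The strain markers were as the genotypes give them for MET17 (MET15), with deposited signals of 4039 and 3883 in WT and 17.7 and 16.0 in nps1-13. The mating-type transcripts went against the listed MATa/α genotype of the mutant. The deposited signal of HMRA1, the a1 transcript, was 1599 and 1896 in WT and 0.9 and 6.1 in nps1-13, whereas that of MF(ALPHA)1, the alpha-factor gene, was 45.0 and 41.6 in WT and 6109 and 6228 in nps1-13. Of 4 alpha-specific genes 4 were higher in nps1-13 by limma, and of 6 a-specific genes STE2 and STE6 were lower and the others did not pass. The mutated gene itself, STH1 (NPS1), had 5017 and 4373 in WT and 7419 and 6524 in nps1-13, a level that does not check an allele made of substitutions. LEU2, deleted in both strains by their genotypes, had 37.1 or less in WT and 4446 and 4225 in nps1-13. The nps1-13 allele, the mating-type transcripts and the LEU2 signal differed between the same arrays and cannot be told apart as sources of any difference given here.

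By limma, with p-values adjusted over all genes and a threshold of 0.05, 29 of the 57 genes were lower in nps1-13 and 13 higher, which left 15 that missed the threshold. Errors given after a log2 fold change are standard errors from this fit. Of all genes tested, 34.6% were lower and 42.7% higher by the same test. The median log2 fold change of the 57 genes was -0.22. As deposited, 45 were lower and 5 higher (all genes 64.3% and 9.41%), with the arrays at a common trimmed mean 33 and 11 (43.2% and 33.0%), and with quantile normalization 28 and 16 (37.7% and 36.4%), where the median was -0.09. At a change of over 1.5-fold past the same test, 13 genes were lower and 5 higher, beside 14.5% and 14.2% of all genes (31 and 1 as deposited, beside 38.2% and 4.19%; 21 and 5 at the trimmed mean, beside 19.3% lower and 536 of 5343 genes higher; 13 and 6 with quantile normalization, beside 13.8% and 13.2%). At over 2-fold, which was the threshold of the study's methods, CDC5 alone was lower and DAD4 alone was higher, beside 4.96% and 4.88% of all genes. As deposited 13 were over 2-fold lower and 0 higher (all genes 16.7% and 1.98%), at the trimmed mean 7 and 1 (7.13% and 3.72%), and with quantile normalization 2 and 1 (4.79% and 4.75%). The number over 2-fold lower was 4 without WT replicate 2 and 2 without nps1-13 replicate 1. The scaled signals of the strains did not overlap for 32 lower and 19 higher genes, beside 40.3% and 49.0% of all genes; the 18 genes past 1.5-fold were among them. On all 4 scales 27 of the genes were lower and 5 higher, beside 31.0% and 9.41% of all genes, the latter being NDC80, DAD2, DAD4, NNF1 and BIR1.

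**Figure D1:**
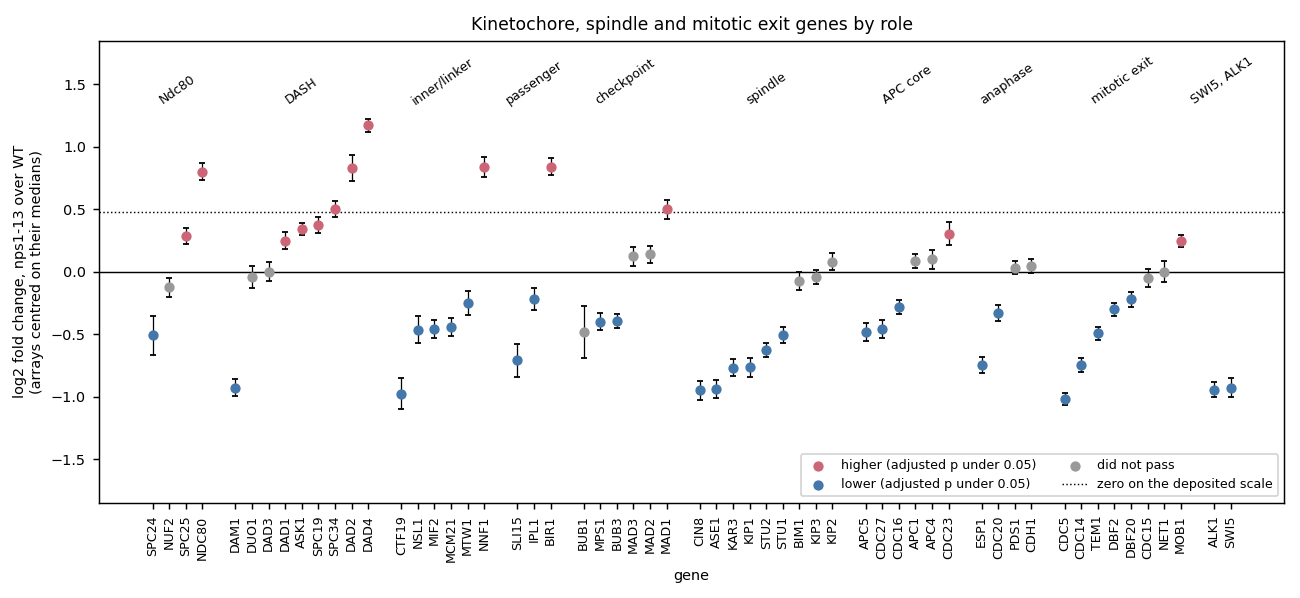
Log2 fold change of nps1-13 over WT for each of the 57 genes (2 arrays per strain, arrays centred on their medians), grouped by role, with bars of 1 standard error from limma. Points are coloured by the limma call, and the dotted line marks the level that is zero on the deposited scale, 0.48. DAD4 is highest at 1.17 and CDC5 lowest at -1.02. No gene was called higher among the spindle genes, the activators with securin and separase, or SWI5 with ALK1. All other groups hold both higher and lower genes.

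The Ndc80 complex is a rod that grips the microtubule with the heads of Ndc80 and Nuf2 and is held to the kinetochore by Spc24 and Spc25. NDC80 had scaled signals of 1123 and 1172 in WT and 2071 and 1934 in nps1-13. It was 1.75-fold higher, a log2 fold change of 0.80 ± 0.064 (limma adjusted p = 2.5e-06). Its partner NUF2, with 1129 and 1143 in WT and 1101 and 988 in nps1-13, did not pass (log2 fold change -0.12, adjusted p = 0.16), although it did without nps1-13 replicate 1 (adjusted p = 0.034). SPC25 was slightly higher at 0.29 and was at -0.19 as deposited. SPC24, with low signals of 371 and 307 against 271 and 207, was lower at -0.51 ± 0.16, and did not pass without WT replicate 1 or without nps1-13 replicate 2 (adjusted p = 0.12 and 0.092). The 4 subunits of this complex thus ranged from -0.51 to 0.80 on the log2 scale.

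DASH (the Dam1 complex) forms rings or patches around microtubules and couples kinetochores to their shrinking ends. Of its 9 genes among the 57, 6 were higher and 1 lower, beside 42.7% and 34.6% of all genes, and 2 did not pass. The median log2 fold change was 0.34 (0.23 after quantile normalization and -0.13 as deposited). As deposited 2 were higher and 3 lower, beside 9.41% and 64.3% of all genes. DAD4, a small subunit, had 2125 and 2143 in WT and 4942 and 4684 in nps1-13. Its log2 fold change of 1.17 ± 0.050 (limma adjusted p = 4.2e-08) was the largest increase among the 57 genes. DAM1, which encodes a target of the Aurora kinase Ipl1, moved the other way. Its signals were 2799 and 3023 in WT and 1458 and 1601 in nps1-13, a log2 fold change of -0.93 ± 0.066 (limma adjusted p = 1.1e-06). DAD2 had 288 and 309 in WT and 522 and 538.5 in nps1-13, with a log2 fold change of 0.83 ± 0.10. SPC34, SPC19, ASK1 and DAD1 were higher at 0.50, 0.37, 0.34 and 0.25, and of these only SPC34 was above 0 as deposited, at 0.03. DAD1 did not pass without WT replicate 1 (adjusted p = 0.066) or without nps1-13 replicate 1 (adjusted p = 0.053), nor at a common trimmed mean. DUO1 and DAD3 were at -0.04 and 0.0016 and their arrays overlapped between the strains. The remaining subunit gene, HSK3, which was not among the 57 and was named after its value was seen, had 974 and 1099 in WT and 599 and 563 in nps1-13 (log2 fold change -0.83, limma adjusted p = 1.6e-05). The transcripts of this single complex therefore included some over 1.5-fold higher and some over 1.5-fold lower in the same RNA.

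**Figure D2:**
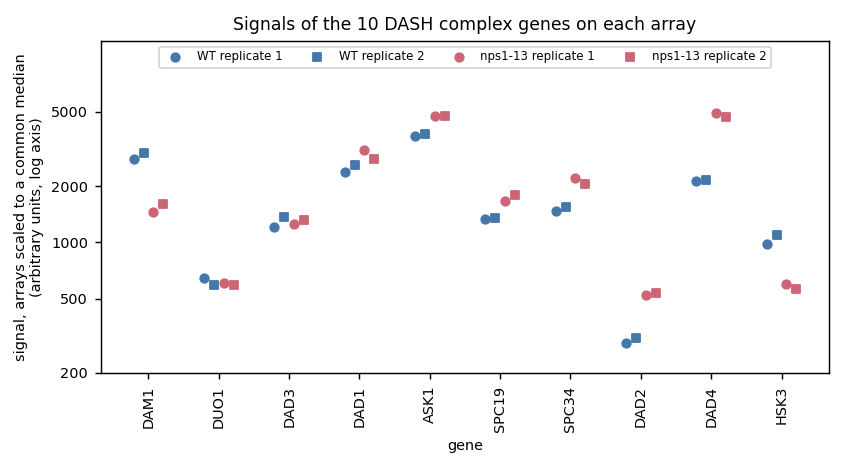
Scaled signal (arbitrary units, log axis) of the 10 DASH complex genes on each of the 4 arrays, ordered by log2 fold change with HSK3 last; blue is WT and red nps1-13, circles are replicate 1 and squares replicate 2. DAM1 and HSK3 lie lower in nps1-13, and DAD2 and DAD4 higher, with no overlap between the strains.

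Closer to the chromosome, Mif2 (CENP-C) binds the centromeric nucleosome, Ctf19 and Mcm21 belong to the COMA complex, and Mtw1, Nnf1 and Nsl1 belong to the MIND complex that links it to Ndc80. Of these 6 genes 5 were lower and 1 was higher, beside 34.6% and 42.7% of all genes. CTF19, with low signals of 391 and 348 in WT and 185 and 190 in nps1-13, was 1.97-fold lower (log2 fold change -0.98 ± 0.12, limma adjusted p = 5.6e-05). NSL1, MIF2 and MCM21 were at -0.46, -0.46 and -0.44, and at -0.28, -0.27 and -0.26 after quantile normalization. MTW1, at -0.25, passed as lower only with both WT arrays and nps1-13 replicate 2 in the fit (adjusted p = 0.15, 0.11 and 0.14 without WT replicate 1, WT replicate 2 and nps1-13 replicate 2), and was at -0.09 after quantile normalization (adjusted p = 0.43). NNF1 was the exception. Its signals were 1420 and 1336 in WT and 2672 and 2273 in nps1-13, 1.79-fold higher (log2 fold change 0.84 ± 0.079, limma adjusted p = 7.5e-06). Among the genes for their COMA partners, OKP1 was at -1.36 (2557 and 2566 against 1001 and 999.6) and AME1, named after its value was seen, at 0.70.

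The chromosomal passenger complex corrects faulty attachments. Its kinase Ipl1 (Aurora B) is activated by Sli15 (INCENP), and Bir1 (survivin) places the complex at the centromere. BIR1 was higher, with 1068 and 1115 in WT and 2055 and 1862 in nps1-13 (log2 fold change 0.84 ± 0.069, limma adjusted p = 2.9e-06). SLI15 was lower, with 408 and 331 in WT and 234 and 216 in nps1-13 (log2 fold change -0.71 ± 0.13, limma adjusted p = 8.6e-04). IPL1 was at -0.22, with 589.5 and 599 against 520 and 499.7. Its call as lower (adjusted p = 0.042) was lost without WT replicate 1, WT replicate 2 or nps1-13 replicate 2 (adjusted p = 0.14, 0.18 and 0.088) and after quantile normalization (0.55).

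Among the 6 spindle checkpoint genes the changes were smaller, and none passed 1.5-fold, beside 14.5% lower and 14.2% higher of all genes. With quantile normalization MAD1 (0.60) and BUB1 (-0.59) did pass that size. MPS1, a kinase that starts the checkpoint signal, and BUB3 were lower at -0.40 each. MAD1, the kinetochore receptor of Mad2, was higher at 0.50 (1295 and 1465 in WT, 2036 and 1865 in nps1-13). MAD2 and MAD3, which form the inhibitor of Cdc20, were at 0.14 and 0.12 and did not pass (adjusted p = 0.0815 and 0.16), whereas both passed as higher after quantile normalization, at 0.18 and 0.30, and were at -0.34 and -0.35 as deposited. MAD2 also passed without nps1-13 replicate 2 (adjusted p = 0.0094). The checkpoint kinase gene BUB1 had the lowest signals of the 57 genes, 126 and 157 in WT and 85.8 and 118 in nps1-13. Its log2 fold change of -0.48 had a standard error of 0.21 and did not pass (adjusted p = 0.056), but did without nps1-13 replicate 2 (0.017).

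Among the spindle motors and microtubule proteins no gene was higher. Of 9 genes 6 were lower and 0 higher, beside 34.6% and 42.7% of all genes, and 3 did not pass. Over 1.5-fold lower were 5 (4 after quantile normalization), beside 14.5% of all genes (13.8%). The median log2 fold change was -0.63 (-0.58 after quantile normalization, -1.10 as deposited). Cin8 and Kip1 are paralogous kinesin-5 motors that push the spindle poles apart. CIN8 had 1388 and 1274 in WT and 707 and 670 in nps1-13 (log2 fold change -0.95 ± 0.077, limma adjusted p = 2.7e-06). KIP1 had 1204 and 1104 in WT and 671 and 684 in nps1-13 (log2 fold change -0.77 ± 0.078). Both paralogs were lower on both nps1-13 arrays; how far their probes share signal was not tested. ASE1, whose product bundles the microtubules of the spindle midzone, had 1307 and 1324 in WT and 687 and 685 in nps1-13, 1.92-fold lower (log2 fold change -0.94 ± 0.070, limma adjusted p = 1.5e-06). KAR3, a minus-end directed kinesin that also acts in nuclear fusion during mating, had 1710 and 1637 in WT and 944 and 1024 in nps1-13 (log2 fold change -0.77 ± 0.070). Of the genes for its partner proteins, CIK1 was at -0.76 and VIK1 at 0.37, both named after their values were seen. STU2 and STU1, which encode a microtubule polymerase and a CLASP protein, were lower at -0.63 (2574 and 2530 against 1666 and 1641) and -0.51. KIP2, KIP3, which encodes a depolymerizing kinesin-8, and BIM1 lay between -0.08 and 0.08 and did not pass. KIP2 passed as higher after quantile normalization, at 0.24, and was lower as deposited, at -0.39.

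**Figure D3:**
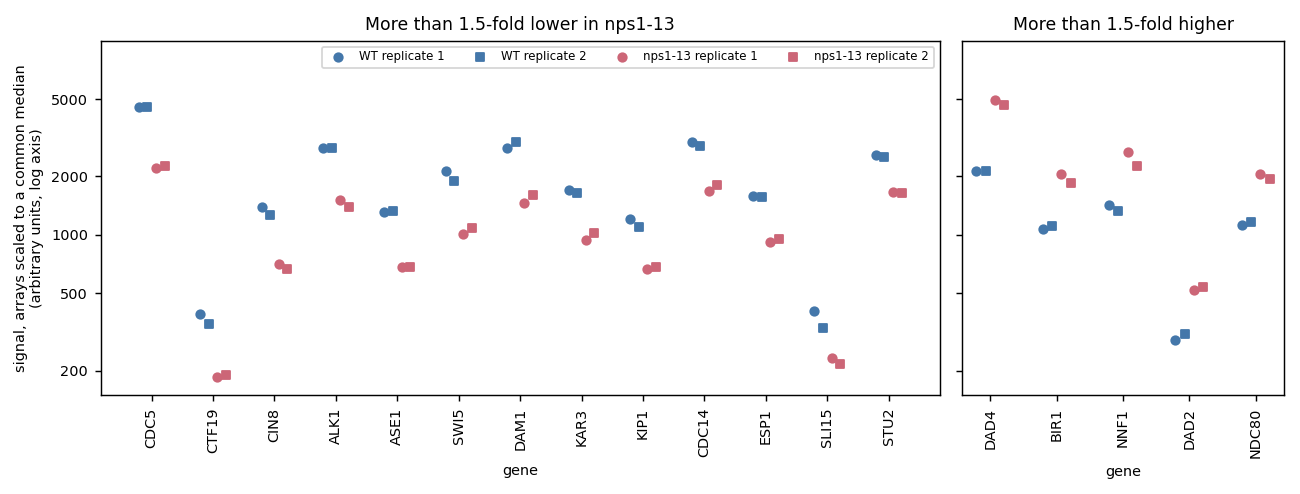
Scaled signal (arbitrary units, log axis) on each array of the 13 genes over 1.5-fold lower and the 5 over 1.5-fold higher in nps1-13; blue is WT and red nps1-13, circles are replicate 1 and squares replicate 2. In each of these genes both nps1-13 arrays lie on the same side of both WT arrays.

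The 6 genes of the anaphase promoting complex core did not move together. APC5, CDC27 and CDC16 were lower at -0.48, -0.46 and -0.28, CDC23 was higher at 0.30, and APC1 and APC4, which encode scaffold subunits, did not pass at 0.09 and 0.10. CDC23 had 763 and 729.6 in WT and 855 and 993 in nps1-13 and did not pass without WT replicate 2 (adjusted p = 0.067) or without nps1-13 replicate 2 (0.062). APC4 passed as higher after quantile normalization, at 0.30. Of the genes for the activators, CDC20 was lower at -0.33 (1441 and 1441 against 1165 and 1130) and CDH1, at 0.05, did not pass. PDS1 (securin) had 2189 and 2251 in WT and 2269 and 2273 in nps1-13, a log2 fold change of 0.03 ± 0.052. ESP1 (separase) had 1590 and 1566 in WT and 921 and 958 in nps1-13, 1.68-fold lower (log2 fold change -0.75 ± 0.065, limma adjusted p = 4.3e-06).

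Among the 8 mitotic exit genes, 5 passed as lower and 1 as higher, beside 34.6% and 42.7% of all genes. CDC5, the polo kinase of anaphase and mitotic exit, had 4533 and 4536 in WT and 2212 and 2263 in nps1-13. Its log2 fold change of -1.02 ± 0.047 (limma adjusted p = 7.0e-08) was the largest decrease among the 57 genes. CDC14, the phosphatase that reverses cyclin-dependent phosphorylation, had 3003 and 2866 in WT and 1693 and 1802 in nps1-13 (log2 fold change -0.75 ± 0.057, limma adjusted p = 1.8e-06). NET1, whose product anchors Cdc14 in the nucleolus, was at 0.0017 with overlapping arrays (2856 and 2641 against 3008 and 2513). TEM1, the GTPase at the head of the exit network, was lower at -0.49. CDC15, the kinase below it, was at -0.05 and did not pass. The paralogs DBF2 and DBF20, which encode the last kinases of the network, were both lower. DBF2 had 2438 and 2501 in WT and 1990 and 2020 in nps1-13 (log2 fold change -0.30 ± 0.052), and DBF20 had 1942 and 1855 against 1606 and 1649 (log2 fold change -0.22 ± 0.058), which did not pass without WT replicate 1 (adjusted p = 0.069). MOB1, the partner of both kinases, was higher at 0.25, but was at 0.10 after quantile normalization, which did not pass, and at -0.23 as deposited.

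SWI5, a transcription factor that turns on genes at the end of mitosis, had 2123 and 1885 in WT and 1016 and 1086 in nps1-13 (log2 fold change -0.93 ± 0.075, limma adjusted p = 2.5e-06). ALK1, a haspin-like kinase gene, had 2796 and 2807 in WT and 1514 and 1400 in nps1-13 (log2 fold change -0.94 ± 0.059, limma adjusted p = 4.8e-07). Together with CDC5 and CDC20 they belong to the CLB2 cluster, a set of genes transcribed in G2 and M phase under Mcm1 and forkhead factors. These 4 genes were lower in nps1-13, CDC20 by 0.33 and the other 3 by 0.93 to 1.02 on the log2 scale. MOB1 and KIP2, which have also been placed in that cluster, were not lower on the scaled signals, at 0.25 and 0.08. The study lists KIP2 among the genes down-regulated in nps1-13 by its 2-fold threshold. On none of the 4 scales here was KIP2 over 2-fold lower, its lowest value being -0.39 as deposited. The source of this difference was not tested.

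**Figure D4:**
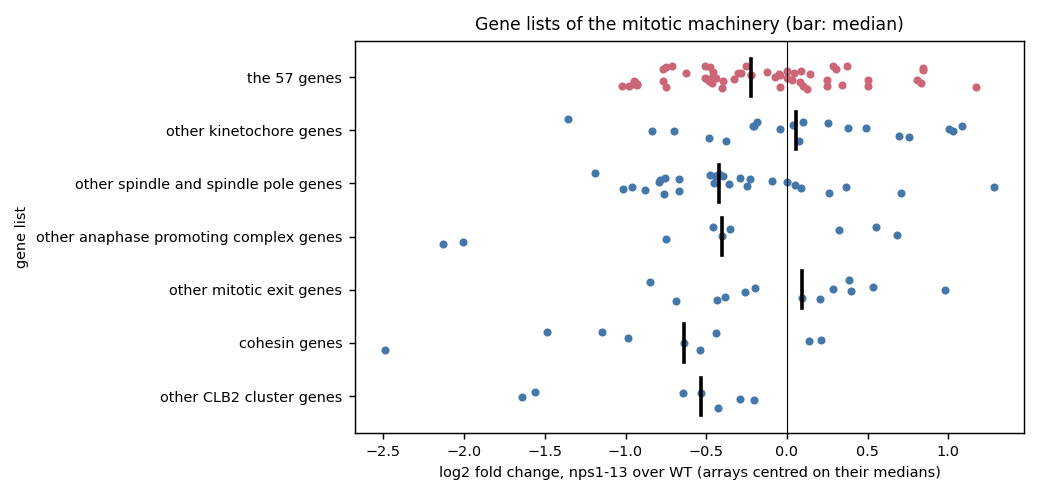
Log2 fold change of nps1-13 over WT (2 arrays per strain, arrays centred on their medians) for the 57 genes and for 6 further lists of the mitotic machinery, with 1 point per gene, vertical jitter for visibility and a bar at each median. The medians are lowest in the cohesin genes, at -0.64, and in the other CLB2 cluster genes, at -0.53.

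A further 85 genes of the same machinery were measured, of which 52 passed as lower and 22 as higher (66 and 6 as deposited, 46 and 23 after quantile normalization). Of all genes, 34.6% were lower and 42.7% higher by the same test (64.3% and 9.41% as deposited, 37.7% and 36.4% after quantile normalization). A list of 7 other CLB2 cluster genes, which is a selection from that cluster, held 7 that were lower on all 4 scales, beside 31.0% of all genes. NUM1, a further gene placed in the cluster but listed here with the spindle, was higher at 0.26 (0.06 with quantile normalization, which did not pass, and -0.21 as deposited). The list was led by the mitotic cyclin genes CLB1 (6147 and 6075 in WT, 2014 and 1910 in nps1-13) and CLB2 (1837 and 1870 against 586 and 676), with log2 fold changes of -1.64 and -1.56, followed by the bud site gene BUD4 and the deacetylase gene HST3 at -0.64 and -0.53. Of 9 cohesin genes 7 were lower and 1 higher (77.8% and 11.1% of the list), beside 34.6% and 42.7% of all genes. MCD1, the cohesin subunit cut by separase, had 2243 and 2068 in WT and 375 and 394 in nps1-13 (log2 fold change -2.49 ± 0.078, limma adjusted p = 7.5e-09), and PDS5, RAD61 and IRR1 followed at -1.48, -1.14 and -0.99. Of 27 other genes of the spindle and its poles 19 were lower and 4 higher (70.4% and 14.8% of the list), beside the same shares of all genes. Among them SPC97 of the gamma-tubulin complex, SPC29 and SPC110 were at -1.19, -1.01 and -0.96, and MPS2, which anchors the spindle pole body in the nuclear envelope, was at 1.28.

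The remaining lists were mixed, beside 34.6% of all genes lower and 42.7% higher (37.7% and 36.4% with quantile normalization). Of 20 other kinetochore genes 8 were lower and 8 higher, 40.0% each (4 and 8 with quantile normalization). Their log2 fold changes ran from OKP1 at -1.36 to IML3, CBF1 and MCM22 at 1.09, 1.03 and 1.01. Of 9 other genes of the anaphase promoting complex and its regulators 5 were lower and 3 higher (55.6% and 33.3% of the list). APC11, the catalytic RING subunit, had 1834 and 1756 in WT and 409 and 411 in nps1-13 (log2 fold change -2.13 ± 0.074), ACM1, an inhibitor of Cdh1, was at -2.00, and CDC26 and MND2 were at -0.75 and 0.68. Of 13 other mitotic exit genes 6 were lower and 6 higher, 46.2% each. Among them were ZDS2 at -0.85, LTE1 at -0.69, BUB2, which restrains Tem1, at 0.98, and BNS1 at 0.53.

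The fold change varied with the signal. Over all genes the median scaled log2 fold change was -0.07 and -0.14 in the 2 dimmest of 5 equal bins of mean deposited signal and 0.23 in the brightest, whereas after quantile normalization the 5 medians lay between -0.03 and 0.02. Of the 57 genes, 16, 24, 13 and 4 lay in the first to the fourth bin and 0 in the brightest. Within the dimmest bin their median was -0.45 (-0.27 after quantile normalization), in the next -0.10 (0.05), in the middle bin -0.30 (-0.28), and in the fourth 0.27 (0.15). Of the 13 genes over 1.5-fold lower, 12 were also over 1.5-fold lower after quantile normalization, KIP1 being the exception at -0.58, and the 5 genes over 1.5-fold higher all passed that size again.

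**Figure D5:**
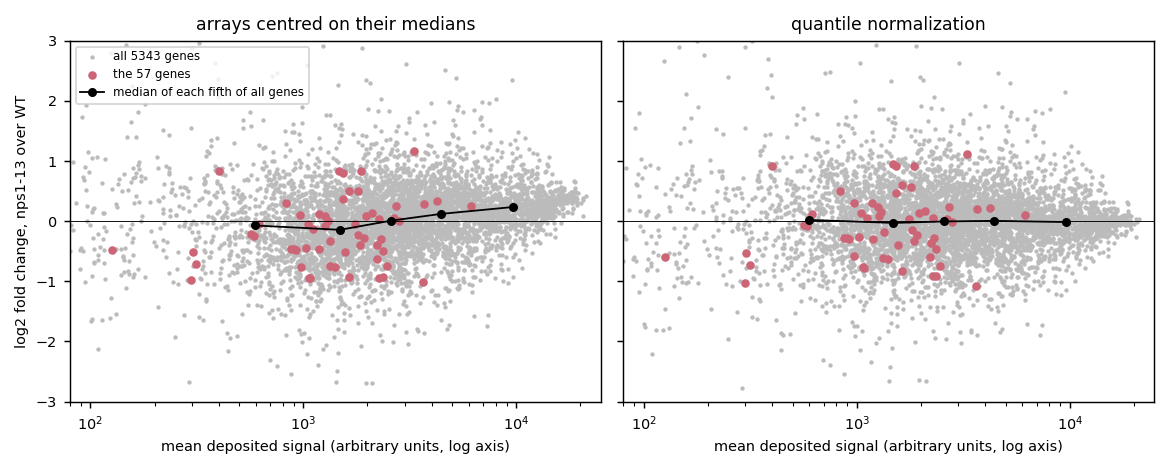
Log2 fold change of nps1-13 over WT against the mean deposited signal (log axis) for all genes (grey) and the 57 genes (red), with the arrays centred on their medians (left) and after quantile normalization (right); black points are medians of all genes in 5 equal bins of signal. Genes with a mean signal under 80 or beyond 3 on the log2 scale lie outside the axes. The medians climb to 0.23 on the left and stay between -0.03 and 0.02 on the right.

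Gene length is given as a description only. The 13 genes over 1.5-fold lower had a median gene length of 2190 bases in the RefSeq annotation of the R64 assembly. For the 5 over 1.5-fold higher it was 606 and for the other 39 genes 1548, against 1245 for all genes tested. The groups overlapped, since DAM1 has 1032 bases and BIR1, which was higher, 2865. Across the 57 genes length and log2 fold change had a Spearman correlation of -0.39, and across all genes of -0.08; genes share the same 4 arrays and are not independent replicates. On the chromosomes, 2 of the 18 genes past 1.5-fold (11.1%) lay next to a gene past 1.5-fold in the same direction, namely CTF19 beside VTC3 and ALK1 beside GET1, and among all such genes with a measured neighbour 34.6% did.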

How the data were processed

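The authors made biotin-labelled cRNA from total RNA and hybridized it to Affymetrix Yeast Genome 2.0 arrays. By the methods, they used GCOS (default settings, global scaling) to compute 1 signal per probe set. The deposited intensity values were read as such signals on a linear scale. The methods give 1 common trimmed mean target for all arrays, which the values do not show: the 4 arrays (2 WT, 2 nps1-13, grouped by sample title) had trimmed means from 3158 to 4285. How the values were scaled before deposit is thus not settled, and each array was centred on its median log2 signal. Genes were named through the platform annotation and RefSeq identifiers. Of 5558 probe sets 5345 had 1 symbol, 0 had several and 213 were unnamed here; for 2 genes with more than 1 probe set the brightest was used. No filter was applied, so all 57 genes were tested.

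Strains were compared in R 4.3.3 with limma 3.58.1 (lmFit, eBayes with trend) on log2 signals, with Benjamini-Hochberg adjustment over 5343 genes at 0.05. The trend and pooling gave 7.41 prior beside 2 residual degrees of freedom. On the deposited scale the prior degrees of freedom were infinite, so the spread there came from the trend alone. The fit was tested on simulated data. Because the test called most genes, a size of 1.5-fold beside the same test was added; the 2-fold rule, from the methods, was applied to ratios of mean scaled signals with no test. Detection calls were not used here, and between 167 and 213 probe sets per array had a signal under 100. The number of arrays limits precision. Python 3.11.15 and pandas 2.3.3 made the summaries.

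The members and lists were chosen with earlier results of these data known. Values on every array were given for the genes past 1.5-fold and limma, the paralog pairs and some others whose calls were at issue; of each further list the 2 to 4 largest changes were named. Of 86 genes on those lists NDC10 was not measured under this name. A further planned list is not reported here. A planned search for motifs in promoters was not run, because no promoter sequences were used here. Alternatives were other scalings, filters at a mean signal of 100 or 200, 32 added to the signal, eBayes without trend, averaged probe sets, a replicate block and each array left out in turn.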

Additional observations from a re-analysis of the deposited data

How the results depend on the processing

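Scaling moved the results most. On the deposited scale 503 genes were higher and 3435 lower; of the 57 genes 5 were higher and 45 lower, 1 and 31 over 1.5-fold, and 0 and 13 over 2-fold, and of the other pathway genes 6 were higher. Against the scaled values, 15 genes turned negative as deposited, by log2 fold changes of -0.19 (SPC25), -0.23 (DAD1), -0.47 (DAD3), -0.13 (ASK1), -0.11 (SPC19), -0.34 (MAD2), -0.35 (MAD3), -0.39 (KIP2), -0.43 (CDH1), -0.23 (MOB1), -0.47 (NET1), -0.44 (PDS1), -0.39 (APC1), -0.38 (APC4) and -0.17 (CDC23), since centring adds 0.48 to each. At a common trimmed mean 21 genes were over 1.5-fold lower and 7 over 2-fold lower, and with quantile normalization 2 were over 2-fold lower. The median of the 57 genes was -0.70 as deposited, -0.35 at the trimmed mean and -0.089 with quantile normalization. In the same order the medians were -0.39, -0.050 and 0.13 for the Ndc80 complex, -0.13, 0.21 and 0.23 for DASH, -0.93, -0.58 and -0.27 for the inner and linker kinetochore, -0.70, -0.35 and -0.060 for the passenger complex, -0.61, -0.27 and -0.079 for the checkpoint, -1.10, -0.76 and -0.58 for the spindle genes, -0.57, -0.23 and -0.050 for the anaphase promoting complex core, -0.62, -0.28 and -0.069 for the activators, securin and separase, -0.74, -0.39 and -0.22 for mitotic exit, and -1.41, -1.07 and -0.87 for SWI5 with ALK1. The checkpoint median was 0.12 at a mean signal of at least 200, where BUB1 drops out, and -0.078 with 32 added.

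Leaving out 1 array leaves 1 array in a strain, so only sizes are given here. Of the 57 genes 1 to 4 were then over 2-fold lower, by the rule with no test. The share of all genes under that rule is not given for these fits. Medians lay between -0.48 and -0.38 for the inner and linker kinetochore and between -0.14 and -0.080 for the checkpoint. The replicate block left 13 higher and 29 lower (BUB1 gained, IPL1 lost), beside 2249 higher and 1799 lower of all 5343 genes. Same-numbered arrays share only a number, and their deviations had r = -0.12. With the numbers crossed, a fit added after seeing the data, 14 of the 57 were higher and 29 lower, beside 2313 and 1917 of all genes. Motifs in promoters were not run. With 2 arrays per strain and no detection calls used, dim genes such as BUB1 and SPC24 are the least certain.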
